A study of Homo sapiens with 12 samples.

Results

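The 37 genes described here encode proteins that build the centromere and the kinetochore. They were taken by name from a fixed list, matched by gene name in the DU145 count table and by Ensembl identifier in the C4-2 table, and all 37 were found among the 56747 identifiers present in both tables. Expression was measured by RNA sequencing in 2 human prostate cancer lines treated with palbociclib or with its solvent, dimethyl sulfoxide (DMSO). Palbociclib blocks CDK4 and CDK6, which inactivate RB1 by phosphorylation. C4-2 (C42 in the labels) descends from LNCaP, grows without androgen and retains RB1, while DU145, derived from a brain metastasis, has no functional RB1. The labels give 4 groups of 3 libraries: palbociclib and DMSO for C4-2, and palbociclib and DMSO for DU145. The cells of all groups were kept in RPMI-1640 medium containing 10% serum; drug dose and exposure time were not given in the sources used here. Whether libraries of a group come from different cultures is not stated, and the p-values thus reflect variation among these libraries only, possibly technical.

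The C4-2 DMSO library with the number 3 held 0 counts for every gene and was left out, so 11 of 12 libraries were used and C4-2 was compared as 3 palbociclib against 2 DMSO libraries. Totals were 2608851 to 3489659 counts in the table labelled C4-2 and 16108999 to 16674393 in the table labelled DU145. Levels are in CPM, each count being scaled to its library's total. At these depths, 0 counts in a library leave room for 0.86 to 1.15 CPM in the C4-2 table and 0.18 to 0.186 CPM in the DU145 table. In DU145 the libraries with the number 3 stood apart in both groups, with a chi-square per degree of freedom of 5.41 to 8.34 against libraries of their own group, where the remaining pairs gave 2.36 and 2.37. Pairs of the same group among libraries labelled C4-2 gave 1.14 to 1.18, little more than counting error. The p-values for C4-2 thus rest on libraries that hardly differed within a group. Of 8 luminal prostate markers, KLK3, KLK2, ACP3 and FOLH1 had 0 counts in all 5 libraries labelled C4-2. The same libraries held FN1, a mesenchymal matrix gene, at 18757 to 20926 CPM. These libraries are therefore named by their label. Summed over 4 leukocyte markers the level was 0.692 to 1.99 CPM in libraries labelled C4-2; in DU145 it was 0.305 to 0.372 CPM with DMSO and 3.21 to 4.23 CPM with palbociclib, most of it CD14, while PTPRC and CD3E stayed at 0.

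The centromere is the stretch of chromosome on which nucleosomes carry CENPA, a variant of histone H3. A network of CENP proteins sits on that chromatin throughout the cell cycle, and before mitosis it recruits the outer kinetochore, whose NDC80 complex holds the spindle microtubules. The chromosomal passenger complex releases faulty attachments, and the shugoshins protect cohesion between sister centromeres. Transcripts of many of these proteins are made in G2 and mitosis, and their genes are known targets of the E2F, DREAM and MuvB regulators that act downstream of RB1 and its relatives.

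Because known regulators of these genes bind short promoter motifs, the windows around the gene starts were read first. RefSeq sequence of GRCh38.p14, from 250 bases before to 50 bases after each start, was available for 31 of the 37 genes; MIS18A, CENPH, CENPM, CENPL, KNL1 and BIRC5 had no entry. Letters of 3 kinds were searched on both strands. The cell cycle genes homology region (CHR) was spelled TTTGAA or TTCGAA, the CCAAT box was spelled CCAAT, and the E2F element was spelled TTTCCCGC, TTTGGCGC, TTTGCCGC or TTTCGCGC. None of these spellings contains another. The sequences below are examples from genes called lower in the libraries labelled C4-2, cut so that the longer ones lie in no annotated exon. Windows not printed also hold such letters, among them those of CENPC and ZW10. The sequences are written 5′ to 3′ on the strand of the gene with the matched letters in capitals. TTCAAA and ATTGG are the reverse complements of TTTGAA and CCAAT.
HJURP (chr2:233854567-233854685, minus strand, 119 bases): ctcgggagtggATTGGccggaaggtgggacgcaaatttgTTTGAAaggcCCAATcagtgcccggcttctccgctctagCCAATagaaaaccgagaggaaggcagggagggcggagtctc
ZWINT (chr10:56361276-56361409, minus strand, 134 bases): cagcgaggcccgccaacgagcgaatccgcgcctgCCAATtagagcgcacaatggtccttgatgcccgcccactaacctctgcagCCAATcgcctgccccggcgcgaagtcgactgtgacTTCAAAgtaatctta
CENPF (chr1:214603045-214603194, plus strand, 150 bases): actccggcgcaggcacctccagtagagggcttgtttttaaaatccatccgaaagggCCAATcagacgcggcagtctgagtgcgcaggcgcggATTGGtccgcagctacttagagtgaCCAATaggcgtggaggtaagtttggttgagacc
HJURP and ZWINT each show CHR letters together with CCAAT boxes, and the stretch printed for CENPF holds 3 of the 4 CCAAT boxes of its window; its CHR letters lie 41 bases past the start and outside that stretch. The next sites of 30 bases show the CHR letters of genes from several classes and, for CENPU, E2F letters.
CENPA (chr2:26786026-26786055, plus strand): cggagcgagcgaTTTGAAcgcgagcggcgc
CENPW (chr6:126340120-126340149, plus strand): gttggcggcggaTTCGAAcgttcggactga
NDC80 (chr18:2571542-2571571, plus strand): ccggcggagaatTTCAAATTCGAAcggctt
INCENP (chr11:62123989-62124018, plus strand): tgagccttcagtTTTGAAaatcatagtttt
CDCA8 (chr1:37692481-37692510, plus strand): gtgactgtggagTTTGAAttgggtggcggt
CENPU (chr4:184734289-184734318, minus strand): gatgcgggtggGCGCGAAAgcccggaaaac

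CHR letters were found in 18 of the 31 windows (58.1%), against 13.7% of 22199 windows of protein-coding genes. CCAAT boxes were found in 22 (71.0%), against 34.7%. E2F letters were found in 4 (12.9%), those of CENPA, OIP5, CENPU and MIS12, against 4.1%. The CHR letters also sat close to the start: 16 of 20 matches (80%) began within 50 bases of it on either side, against 25.7% of 3490 matches in windows of protein-coding genes. A match describes letters and not a bound site, and the windows were not matched on base composition.

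**Figure D1:**
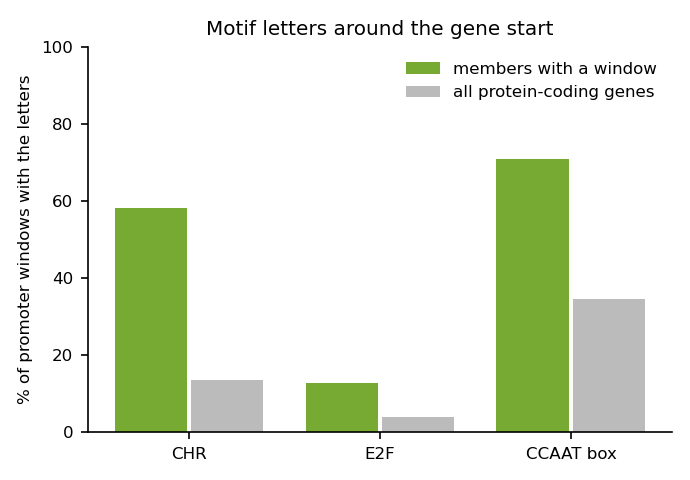
Share of promoter windows (y axis, percent) that hold CHR, E2F or CCAAT letters, for the 31 centromere and kinetochore genes with a window (green) and for 22199 protein-coding genes (grey). The green bars stand at 58.1%, 12.9% and 71.0%, the grey bars at 13.7%, 4.1% and 34.7%.

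In the libraries labelled C4-2, transcripts of the centromere and kinetochore genes fell with palbociclib in every class. Of the 37 genes, 34 had enough counts to be tested, 30 were lower at an adjusted p under 0.05 in edgeR's quasi-likelihood test, and 4 (CENPC, CENPQ, MIS12 and NSL1) did not pass. None was higher, also not at an unadjusted p under 0.05 or with DESeq2, which called 28 lower. Across all 11943 genes tested in these libraries, 51.8% were called, 26.6% lower and 25.2% higher. The median log2 fold change of the 34 genes was -1.11, where that of all tested genes was 0.001. The change was at least 2-fold downward in 19 of them, compared with 4.58% of all tested genes downward and 5.14% upward. In 31 of the 34 every palbociclib library lay below every DMSO library, against 30.3% of all tested genes. Summed over the 37 genes, the level was 2411 to 2468 CPM with DMSO and 1142 to 1158 CPM with palbociclib.

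The proliferation markers MKI67, PCNA and TOP2A moved in the same direction in these libraries. All 3 were lower, and their summed level was 1783 to 1786 CPM with DMSO and 547 to 584 CPM with palbociclib. Their part in the result was not tested. In bulk RNA, fewer cells in the phases that express a transcript and less of it per cell cannot be told apart.

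In DU145 the calls of the same genes went in both directions, as they did over all tested genes. All 37 were tested, 11 were higher, 7 were lower and 19 did not pass. Of the 15361 genes tested in these libraries, 28.8% were called higher and 29.2% lower. In this fit the share of the 37 called higher was thus near that of all genes, and the share called lower was below it. The median log2 fold change was 0.00, beside -0.007 over all tested genes, and no gene changed 2-fold, which 7.38% of all tested genes did downward and 6% upward. All libraries of one treatment lay above those of the other in 11 genes that were higher and 8 that were lower with palbociclib, against 29.4% and 33.4% of all tested genes. With the replicate number as a block, 11 genes were lower instead of 7 and 14 were higher. Of all 15361 genes, 4996 were then called lower and 4957 higher. The level summed over the 37 genes was 1850 to 2028 CPM with DMSO and 2107 to 2226 CPM with palbociclib. The summed proliferation markers overlapped between the groups, at 1323 to 1457 CPM with DMSO and 1285 to 1420 CPM with palbociclib; within them MKI67 was higher, TOP2A was lower and PCNA did not pass without the replicate block (-0.09 ± 0.06, edgeR adjusted p = 0.198) but did with it (adjusted p = 0.0379).

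**Figure D2:**
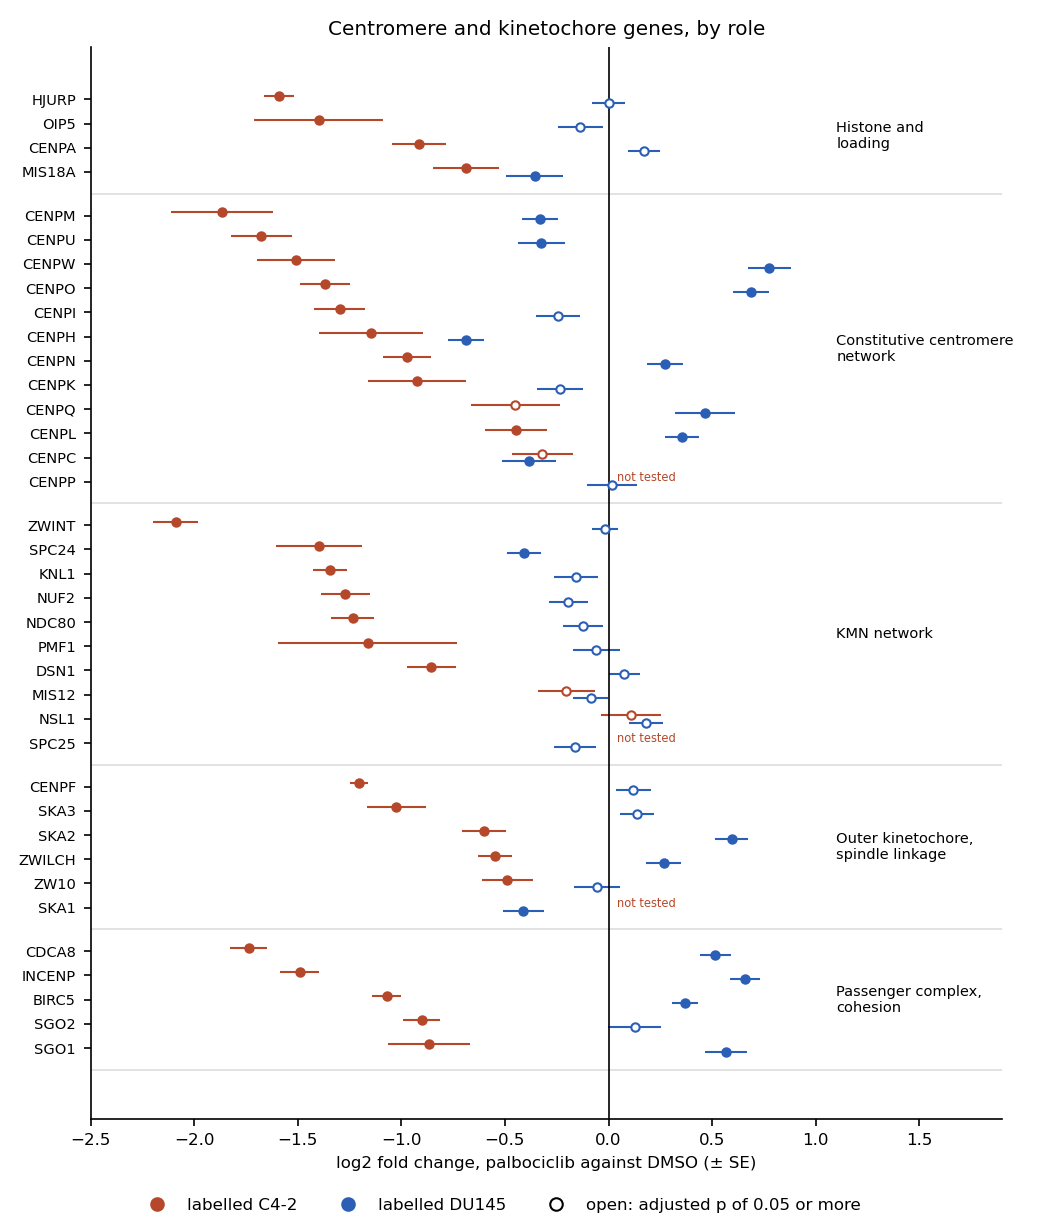
log2 fold change of palbociclib against DMSO (x axis) for each of the 37 genes (y axis), grouped by role, in libraries labelled C4-2 (red) and DU145 (blue). Bars are SE and open points have an adjusted p of 0.05 or more. The red points lie between -2.09 (ZWINT) and 0.11 (NSL1), the blue ones between -0.69 (CENPH) and 0.78 (CENPW).

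Among the genes of the centromeric histone and its loading, all 4 fell in the libraries labelled C4-2, with a median of -1.16. CENPA, the histone itself (chr2:26764289-26801067), stood at 46.1 CPM in both DMSO libraries and at 30.5, 23.8 and 21.9 CPM with palbociclib. The groups were apart, and CENPA fell by 0.91 ± 0.13 (SE) on the log2 scale (edgeR, adjusted p = 1.1e-07). HJURP, the chaperone that deposits CENPA, was at 189 and 191 CPM with DMSO and at 61.3, 62.9 and 70.5 CPM with palbociclib. Every treated library was far below both controls, and HJURP fell by 1.59 ± 0.07 (adjusted p = 2.61e-22), 3.01-fold. OIP5 and MIS18A, subunits of the Mis18 complex that prepares centromeres for new CENPA, fell by 1.40 ± 0.31 and 0.69 ± 0.16. OIP5 rested on 9 to 36 counts per library and shares 38% of its exon bases with the antisense gene OIP5-AS1.

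In DU145 only MIS18A of this class passed. It was at 18.4, 17.6 and 23.8 CPM with DMSO and at 12.7, 17.6 and 15.8 CPM with palbociclib, a log2 fold change of -0.36 ± 0.14 (edgeR, adjusted p = 0.0331). The groups nearly touched at 17.6 CPM. The call ended without the palbociclib library numbered 1 (-0.23, adjusted p = 0.18), without the DMSO library numbered 3 (-0.20, adjusted p = 0.21) and with DESeq2 (adjusted p = 0.0711). CENPA was at 39.9, 43.2 and 43.2 CPM with DMSO and at 45.9, 47.2 and 46.7 CPM with palbociclib. These groups did not overlap, yet the difference of 0.17 ± 0.08 missed the threshold (adjusted p = 0.0678) and passed it with the replicate block (adjusted p = 0.016). HJURP stood at 58.7, 62.7 and 69.7 CPM with DMSO and at 62.7, 63.7 and 61.8 CPM with palbociclib, with a log2 fold change of 0.001 and an interval of -0.155 to 0.157.

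The constitutive centromere network bridges CENPA nucleosomes and the outer kinetochore. It has 12 genes here, of which 9 of 11 tested fell in the libraries labelled C4-2, with a median of -1.15. CENPM, a subunit beside CENPH, CENPI and CENPK, went from 14.6 and 20.9 CPM with DMSO to 4.84, 4.22 and 5.62 CPM with palbociclib. All treated libraries were below both controls, and CENPM fell by 1.86 ± 0.25 (edgeR, adjusted p = 2.14e-08). CENPU, which with CENPO, CENPP and CENPQ forms an outer layer of the network, went from 40.4 and 42.1 to 12.5, 13.8 and 13.6 CPM. CENPU thus fell by 1.68 ± 0.15 (adjusted p = 4.86e-13), with groups far apart. CENPW, the histone-fold partner of CENPT, fell by 1.51 ± 0.19, CENPO by 1.37 ± 0.12, CENPI by 1.30 ± 0.12 and CENPH by 1.15 ± 0.25. CENPN and CENPL, which together read CENPA nucleosomes, fell by 0.97 ± 0.11 and 0.45 ± 0.15, and CENPK fell by 0.92 ± 0.24. CENPL lost its call with DESeq2 (adjusted p = 0.103) and without the DMSO library numbered 2 (adjusted p = 0.0553).

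The remaining genes of the network gave no call there. CENPC, the scaffold that joins CENPA to the KMN network, was at 29.5 and 25.5 CPM with DMSO and at 23.9, 23.8 and 21.3 CPM with palbociclib (edgeR, adjusted p = 0.0641). CENPQ was at 16.9 and 13.3 CPM with DMSO and at 8.31, 11.9 and 13.9 CPM with palbociclib, overlapping at 1 library (adjusted p = 0.0768). CENPC passed without the DMSO library numbered 2 (adjusted p = 0.0492), and CENPQ passed without that library (adjusted p = 0.0359) or without the palbociclib library numbered 3 (adjusted p = 0.0285). CENPP had 6 to 17 counts per library, too few to test, at 3.15 and 5.64 CPM with DMSO and 2.77, 2.68 and 1.78 CPM with palbociclib.

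Of the 12 genes of the network, 5 were called higher and 4 lower in DU145. Of all genes tested in this line, 28.8% were called higher and 29.2% lower. CENPW rose from 18.3, 14.6 and 16.2 CPM with DMSO to 29.7, 26.6 and 26.3 CPM with palbociclib. Its groups were well apart, and the rise of 0.78 ± 0.10 (edgeR, adjusted p = 5.21e-06) was the largest of the 37 genes in this line. CENPO rose from 30.9, 27.1 and 25.7 to 46.1, 42.5 and 44.1 CPM, also without overlap (0.69 ± 0.09, adjusted p = 2.72e-06). CENPO shares 27% of its exon bases with ADCY3 on the opposite strand. CENPL was higher by 0.35 ± 0.08, CENPQ by 0.46 ± 0.14 and CENPN by 0.27 ± 0.09. CENPQ and CENPN overlapped between groups, and both lost their calls without the palbociclib library numbered 2 (adjusted p = 0.0646 and 0.0855) or without the DMSO library numbered 3 (adjusted p = 0.0554 and 0.0653).

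CENPH moved the opposite way to CENPW and CENPO in DU145. It was at 37.1, 37.6 and 34.2 CPM with DMSO and at 22.6, 22.7 and 21 CPM with palbociclib, and fell by 0.69 ± 0.09 (edgeR, adjusted p = 2.62e-06) with no overlap. CENPM went from 32.5, 32.8 and 34.5 CPM to 24.3, 26.6 and 27.1 CPM, and fell by 0.33 ± 0.09 (adjusted p = 0.00362). CENPC and CENPU fell by 0.38 ± 0.13 and 0.32 ± 0.11. Both lost the call with DESeq2 (adjusted p = 0.0595 and 0.0952) and without the palbociclib library numbered 1 (adjusted p = 0.0577 and 0.0891), the DMSO library numbered 1 (0.0519 and 0.0539) or the DMSO library numbered 2 (0.119 and 0.0637). CENPI and CENPK, at -0.24 ± 0.11 and -0.23 ± 0.11, reached the threshold under the replicate block (adjusted p = 0.0124 and 0.00363). Both also passed without the DMSO library numbered 3 (adjusted p = 0.00655 and 0.0309), and CENPK passed without the palbociclib library numbered 2 (adjusted p = 0.0355). CENPP did not pass (0.02 ± 0.12).

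The KMN network is the microtubule-binding core, made of KNL1, the MIS12 complex and the NDC80 complex. In libraries labelled C4-2 it held the largest fall of all 37 genes, that of ZWINT (chr10:56357228-56361275), the partner of KNL1 whose promoter window with a CHR match 31 bases before the start is printed above. ZWINT went from 107 and 104 CPM with DMSO to 30.8, 26.8 and 20.4 CPM with palbociclib. The groups were widely separated, and ZWINT fell by 2.09 ± 0.11 (edgeR, adjusted p = 2.4e-20), 4.25-fold. KNL1 fell by 1.35 ± 0.08. Of the NDC80 complex, NDC80 fell by 1.23 ± 0.10, NUF2 by 1.27 ± 0.12 and SPC24 by 1.40 ± 0.21.

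SPC25, the remaining subunit of the NDC80 complex, was not measurable in the libraries labelled C4-2. It had 4 counts in each DMSO library (1.15 and 1.33 CPM) and 1, 0 and 0 counts with palbociclib. The MIS12 complex was mixed: DSN1 fell by 0.86 ± 0.12 (edgeR, adjusted p = 5.29e-08), while MIS12 and NSL1 did not pass, at -0.20 ± 0.14 and 0.11 ± 0.15. NSL1 was at 25.2 and 25.9 CPM with DMSO and at 27, 24.5 and 32.9 CPM with palbociclib, with its groups overlapping. PMF1 fell by 1.16 ± 0.43 (adjusted p = 0.0223) on 4 to 20 counts per library. Its call ended with DESeq2 (adjusted p = 0.124), without the DMSO library numbered 2 (adjusted p = 0.446) and without the palbociclib library numbered 1 (adjusted p = 0.0791). PMF1 also shares 23.3% of its exon bases with the read-through gene PMF1-BGLAP on the same strand.

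Of the 10 KMN genes, SPC24 alone passed in DU145. It was at 50.6, 47.2 and 46.7 CPM with DMSO and at 33, 38.6 and 35.5 CPM with palbociclib. No library of a group reached the other, and SPC24 fell by 0.41 ± 0.08 (edgeR, adjusted p = 0.000423). ZWINT, the gene with the largest fall in the other line, was at 180, 191 and 174 CPM with DMSO and at 173, 176 and 181 CPM with palbociclib. These groups overlapped, and the log2 fold change was -0.02, with an interval of -0.139 to 0.106. NDC80, NUF2, SPC25, KNL1, MIS12, PMF1, DSN1 and NSL1 lay between -0.19 and 0.18. With the replicate block NUF2 and KNL1 were called lower (adjusted p = 0.014 and 0.0316) and NSL1 higher (adjusted p = 0.0135). NUF2 and KNL1 were also called without the DMSO library numbered 3 (adjusted p = 0.0148 and 0.0131), and NSL1 without the palbociclib library numbered 3 (adjusted p = 0.011).

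**Figure D3:**
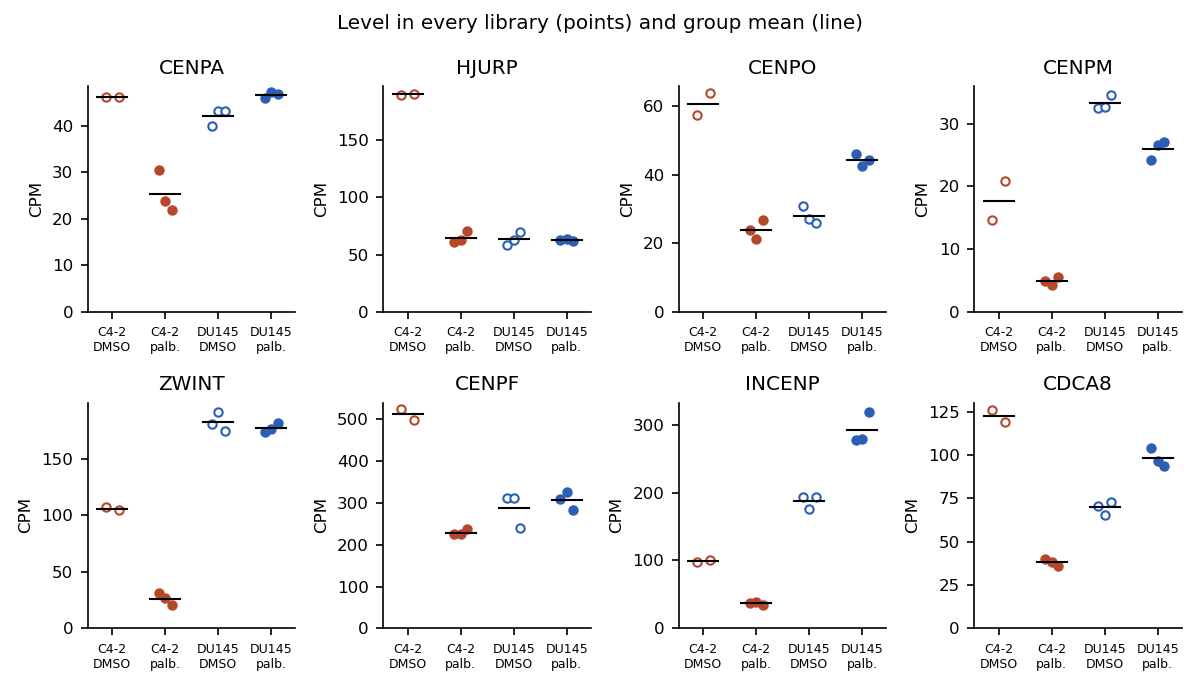
Level in CPM (y axis, from 0) of 8 genes in each of the 11 libraries, by line and treatment (open points DMSO, filled points palbociclib; lines are group means). In libraries labelled C4-2 the palbociclib points lie below the DMSO points for all 8 genes. In DU145 those of CENPA, CENPO, INCENP and CDCA8 lie above, those of CENPM lie below and those of ZWINT, HJURP and CENPF overlap.

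The outer kinetochore and spindle linkage genes showed the smallest median change in libraries labelled C4-2, -0.60, and all 5 tested genes of 6 fell. CENPF, a large protein that builds up in G2 and coats the outer kinetochore, went from 526 and 499 CPM with DMSO to 225, 225 and 238 CPM with palbociclib. Its groups were far apart. CENPF fell by 1.20 ± 0.05, with the smallest adjusted p of the 37 genes (edgeR, 2.43e-25). SKA3 and SKA2, parts of the SKA complex that keeps NDC80 on moving microtubules, fell by 1.02 ± 0.14 and 0.60 ± 0.11. ZWILCH and ZW10, subunits of the RZZ complex that recruits dynein, fell by 0.55 ± 0.08 and 0.49 ± 0.12. SKA1 was not measurable there, with 1 count in a single palbociclib library and 0 in the other four.

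In DU145, where SKA1 had 229 to 337 counts per library, it was at 20.9, 20.4 and 20.2 CPM with DMSO and at 15.9, 13.9 and 15.8 CPM with palbociclib. It fell by 0.41 ± 0.10 (edgeR, adjusted p = 0.00186), with no overlap. SKA2 of the same complex moved the other way, from 59.7, 61.2 and 51.4 to 89.5, 87.6 and 78.4 CPM. Its rise was 0.59 ± 0.08 (adjusted p = 5.54e-06), again with no overlap, while SKA3 did not pass (0.14 ± 0.08). ZWILCH was higher by 0.27 ± 0.09 (adjusted p = 0.0132), a call lost without the palbociclib library numbered 2 (adjusted p = 0.0724) or the DMSO library numbered 3 (adjusted p = 0.0556), and ZW10 did not pass (-0.06 ± 0.11). CENPF was at 311, 311 and 240 CPM with DMSO and at 310, 327 and 284 CPM with palbociclib. Its groups overlapped (0.12 ± 0.08, adjusted p = 0.229), and the library numbered 3 was the lowest of both; with the replicate block CENPF was called higher (0.13, adjusted p = 0.00901).

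That order was common among these genes. In DU145 the libraries numbered 3 were the lowest of both groups for 18 of the 37 genes (48.6%), against 24.8% of the 15361 genes tested. Without both of them, 13 of the 37 genes were higher and 10 lower. Over all genes, 4656 were called higher and 4687 lower in that fit, where all libraries gave 4431 and 4493. CENPA (0.19, adjusted p = 0.0293), CENPI (-0.33, adjusted p = 0.00483), OIP5, NUF2, KNL1 and NSL1 were then added by edgeR, and MIS18A was lost.

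The genes of the chromosomal passenger complex and of cohesion protection rose in DU145 in 4 of 5 cases, and none fell. INCENP, the scaffold of the complex, went from 194, 176 and 194 CPM with DMSO to 278, 279 and 318 CPM with palbociclib. Its groups were far apart, and the rise was 0.66 ± 0.07 (edgeR, adjusted p = 4.79e-07). CDCA8 (borealin), which targets the complex to the centromere, went from 70.8, 65.6 and 72.9 to 104, 96.7 and 93.6 CPM, a rise of 0.52 ± 0.07 (adjusted p = 1.09e-05). BIRC5 (survivin) was higher by 0.37 ± 0.06 and SGO1 (shugoshin) by 0.57 ± 0.10, both without overlap. SGO2 did not pass (0.13 ± 0.13). SGO1 shares 17.7% of its exon bases with the antisense gene SGO1-AS1.

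All 5 of these genes fell in the libraries labelled C4-2, with a median of -1.07. CDCA8 went from 126 and 119 CPM with DMSO to 40.1, 38.3 and 35.8 CPM with palbociclib, and INCENP from 98.3 and 100 CPM to 37.4, 38.7 and 33.7 CPM. Both were far below their controls in every treated library. CDCA8 fell by 1.74 ± 0.09 (edgeR, adjusted p = 1.82e-20) and INCENP fell by 1.49 ± 0.10 (adjusted p = 2.2e-17). BIRC5 fell by 1.07 ± 0.07, SGO2 by 0.90 ± 0.09 and SGO1 by 0.87 ± 0.20. Summed over the class, the level was 510 to 534 CPM with DMSO and 217 to 238 CPM with palbociclib in these libraries, and 439 to 454 CPM with DMSO and 619 to 649 CPM with palbociclib in DU145.

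Whether the 2 lines responded differently was tested directly, as the interaction of line and treatment in a joint edgeR fit (the log2 fold change of DU145 from which that of C4-2 is subtracted). Of the 37 genes, 28 had a higher value in DU145 and none a lower one, also not at an unadjusted p under 0.05. The 28 include SPC25, which was not measurable in the C4-2 table and entered the joint fit through its DU145 counts. CENPP and SKA1 entered in the same way and were not called. Over all 18139 genes in this fit, 18.4% were called higher and 15% lower. These also include genes with enough counts in a single line only. Among the 34 genes tested in each line alone, 27 were called higher, compared with 28.7% of the 11007 genes tested in both, and their median difference was 1.15, beside 0.06 for those 11007 genes. The lines lie in separate tables of different depth, so line and table cannot be told apart.

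The difference was largest for CENPW (2.32 ± 0.22, edgeR adjusted p = 4.17e-10), CDCA8 (2.28 ± 0.12, adjusted p = 1.23e-15) and INCENP (2.18 ± 0.13, adjusted p = 4.31e-15) among genes measurable in both tables. For SPC25 the fitted difference of 3.23 ± 1.03 rested on the 0 to 4 counts per library described above. Under the replicate block the call was lost (adjusted p = 0.0798), as it was without any of 4 of the 5 libraries labelled C4-2 (adjusted p = 0.0506 to 0.0849). ZWINT differed by 2.10 ± 0.13 and CENPO by 2.10 ± 0.16. HJURP, CENPF and CENPA differed by 1.63 ± 0.12, 1.36 ± 0.11 and 1.12 ± 0.16. MIS18A, CENPC, CENPH, CENPK, MIS12, NSL1 and ZW10 were not called, with differences from -0.03 (CENPC) to 0.73 (CENPK), and neither were CENPP (0.96 ± 0.42, adjusted p = 0.0803) and SKA1, whose fitted -3.74 ± 3.01 rests on a single count in the C4-2 table. CENPK (adjusted p = 0.052) reached the threshold under the replicate block (adjusted p = 0.02), and so did ZW10 (adjusted p = 0.055 without and 0.049 with the block).

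Beside SPC25, the interaction calls of CENPQ, OIP5 and PMF1 were lost when a library labelled C4-2 was left out. For CENPQ this was the palbociclib library numbered 1 (edgeR, adjusted p = 0.0676) or the DMSO library numbered 1 (adjusted p = 0.177), and for OIP5 the DMSO library numbered 2 (adjusted p = 0.0514). PMF1 lost it without the palbociclib library numbered 1 (adjusted p = 0.148) or the DMSO library numbered 2 (adjusted p = 0.447), and also without the DU145 palbociclib library numbered 3 (0.0504) or the DU145 DMSO library numbered 1 (0.0541), and with the scaling by library totals (0.0616) or by RLE size factors (0.0529). Leaving out 1 library also gave calls for CENPK (DU145 palbociclib numbered 3, adjusted p = 0.00646, or DU145 DMSO numbered 1, 0.0427). The same was seen for ZW10 (DU145 palbociclib numbered 3, adjusted p = 0.018, DU145 DMSO numbered 1, 0.0418, or numbered 2, 0.0362) and for CENPP (C4-2 DMSO numbered 1, adjusted p = 0.0364).

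**Figure D4:**
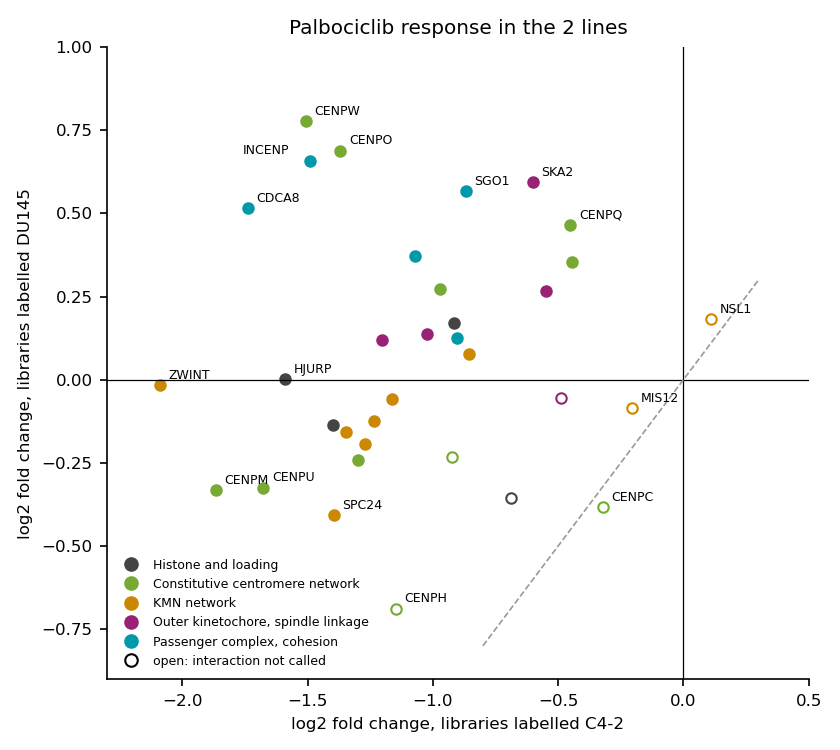
log2 fold change with palbociclib in libraries labelled C4-2 (x axis) and in DU145 (y axis) for the 34 genes tested in both, coloured by role; open points were not called in the interaction test and the dashed line marks equal values. 10 genes called lower in C4-2 and higher in DU145 sit at the upper left, with CENPW, CENPO, INCENP and CDCA8 farthest out.

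Set side by side, 10 genes were called lower in the libraries labelled C4-2 and higher in DU145 (CENPL, CENPN, CENPO, CENPW, SKA2, ZWILCH, INCENP, CDCA8, BIRC5 and SGO1). That combination held for 8.87% of the 11007 genes tested in both. Another 5 were called lower in both lines (MIS18A, CENPH, CENPM, CENPU and SPC24), against 8.67% of those genes. A further 15 were called lower in C4-2 and not called in DU145 in the fits without the replicate block. Among them were CENPA, HJURP, NDC80, KNL1, ZWINT and CENPF. The share of all genes with that combination was not computed. Of these 15, the replicate block in DU145 added CENPA and CENPF as higher and CENPI, CENPK, NUF2 and KNL1 as lower. Across the 34 genes the log2 fold changes of the 2 lines had a Spearman correlation of 0.11 and a Pearson correlation of 0.07, given as a description, since the points share the libraries.

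The genes with and without CHR letters were compared in the same way, as a description. In the libraries labelled C4-2 the median log2 fold change was -1.25 over the 16 tested genes with CHR letters and -0.88 over the 12 without. In DU145 the medians were 0.06 over 18 and 0.02 over 13. For CCAAT boxes the C4-2 medians were -0.97 over 21 genes with the letters and -1.23 over 7 without.

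The level per transcript length, which allows genes to be ranked, was taken from the DU145 DMSO libraries as CPM per kilobase of the deposited gene length (mean ± SD, n = 3). ZWINT was highest, at 76.5 ± 3.53, above INCENP at 42.03 ± 2.28 and BIRC5 at 41.0 ± 1.31. INCENP and BIRC5 overlapped over libraries, and CDCA8 followed at 28.3 ± 1.52. CENPA stood seventh, at 21.2 ± 0.956, and HJURP at 16.7 ± 1.46. From CDCA8 down to NSL1 each gene overlapped the next over libraries, so the order within that stretch is not resolved. SGO2 at 2.90 ± 0.582, CENPC at 1.66 ± 0.315 and CENPP at 1.13 ± 0.114 were the lowest and did not overlap each other.

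A list of 30 other kinetochore genes (checkpoint proteins, kinases, motors and further centromere proteins) was read beside them. In the libraries labelled C4-2, 23 of 28 tested fell and none passed upward with edgeR or DESeq2, with 1 gene, BOD1, higher at an unadjusted p under 0.05 in edgeR and 0 with DESeq2. The median log2 fold change was -1.03. Of all genes tested in these libraries, 26.6% were called lower and 25.2% higher. The smallest adjusted p belonged to CDC20, the activator of the anaphase-promoting complex (-1.76 ± 0.06), the mitotic kinase PLK1 (-1.66 ± 0.07), the microtubule depolymerase KIF2C (-1.60 ± 0.08) and the checkpoint protein BUB1B (-1.50 ± 0.08). AURKB, the kinase of the passenger complex, fell by 1.96 ± 0.12.

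In DU145, 14 of the 30 were higher, 5 were lower and 11 did not pass, with a median of 0.16. Of all genes tested in this line, 28.8% were called higher and 29.2% lower. With the replicate block 16 of the 30 genes were higher and 7 lower in edgeR, beside 4957 higher and 4996 lower of all 15361 genes. The added genes were BUB1 (adjusted p = 0.0106) and SUGT1 (0.0104) upward and TRIP13 (0.00591) and CENPX (0.0315) downward. The rises with the smallest adjusted p were those of KNSTRN, a spindle and kinetochore protein (0.70 ± 0.07), CENPT, the partner of CENPW (0.70 ± 0.08), the chromatin remodeller RSF1 (0.56 ± 0.08) and PLK1 (0.42 ± 0.07). AURKB was higher by 0.27 ± 0.07. The 5 falls, in order of adjusted p, were those of KNTC1, the third subunit of the RZZ complex (-1.15 ± 0.07), ITGB3BP, also known as CENPR (-0.57 ± 0.09), CLASP1 (-0.30 ± 0.07), SPDL1 (-0.33 ± 0.09) and CENPS (-0.80 ± 0.24). The calls in this line were also read by complex. The passenger complex genes INCENP, CDCA8, BIRC5 and AURKB were all higher. In RZZ KNTC1 fell, ZWILCH was higher and ZW10 did not pass. In the CENPO group CENPO and CENPQ were higher, CENPU and ITGB3BP were lower and CENPP did not pass. The calls of ZWILCH, CENPQ and CENPU were lost in some alternatives, and no difference between complexes was tested. In the interaction test 22 of the 30 were higher in DU145 and 1, CLASP1, was lower (-0.34 ± 0.11). Over all genes in that fit, 18.4% were called higher and 15% lower.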

How the data were processed

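RNA sequencing counts were analysed for 37 genes in 11 libraries of 4 groups. The authors deposited raw counts per gene; per the file headers the C4-2 table was made with featureCounts 2.0.1 on Ensembl 107 with no strand setting, from HISAT alignments. The kit was directional but strand was not used, so reads of overlapping genes on opposite strands are mixed there. How the deposited DU145 counts were aligned and counted was not given in the sources used here. Build hg38 is named in the submitters' processing notes. By exon annotation, 15 of the 37 genes share exon bases with another gene, 7 of them over 10%.

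Counts were fitted with edgeR 4.0.16 in R 4.3.3 on all genes of a table (filterByExpr by group, TMM, quasi-likelihood F test, Benjamini-Hochberg at 0.05), each line alone, plus a joint fit of line, treatment and interaction. SE are the coefficient over the root of F, and CPM use library totals. DESeq2 1.42.0, other scalings and filters, a replicate block and leaving out libraries were alternatives. The fits were tested on simulated counts with a fixed dispersion and changes of at least 2-fold. Smaller changes, such as those of the 37 genes in DU145, were not simulated. All 37 genes are accounted for; library values are given for CENPA, the largest changes and interactions, the smallest adjusted p per class and genes not measurable. The genes and lists were chosen with earlier results of these data known. Groups came from the labels.

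The main fits have no replicate block. In DU145, libraries of the same number deviated together from their group means (r = 0.156, 0.248 and 0.482 over 11065 genes for numbers 1, 2 and 3). Libraries 1 and 2 of different treatment also did (0.276 and 0.108). Only number 3 was thus set apart as a pair, and the check cannot resolve whether numbers 1 and 2 pair the libraries. Whether the numbers stand for a pairing is not known, so blocked values are given where they change a call. Limits from a count of 0 take 3 counts and, since reads carry no molecular identifiers, cover counting error only.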

Additional observations from a re-analysis of the deposited data

Results flagged for a closer look

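A test of the difference itself found 27 of the 34 genes tested in both lines to respond differently to palbociclib, all with the higher log2 fold change in DU145. Among all 11007 genes tested in both lines, 28.7% were called higher in DU145 and 21.9% lower. The values that follow are the DU145 minus C4-2 log2 fold changes of the joint fit. In the histone and loading class they were 1.12 for CENPA, 1.63 for HJURP and 1.30 for OIP5. In the constitutive centromere network they were 1.09 for CENPI, 1.57 for CENPM, 0.84 for CENPL, 1.28 for CENPN, 2.10 for CENPO, 0.95 for CENPQ, 1.39 for CENPU and 2.32 for CENPW. KMN genes gave 1.15 for NDC80, 1.11 for NUF2, 1.02 for SPC24, 1.22 for KNL1, 2.10 for ZWINT, 0.96 for DSN1 and 1.15 for PMF1. Outer kinetochore genes gave 1.36 for CENPF, 1.23 for SKA2, 1.19 for SKA3 and 0.85 for ZWILCH. In the passenger and cohesion class they were 2.18 for INCENP, 2.28 for CDCA8, 1.47 for BIRC5, 1.47 for SGO1 and 1.06 for SGO2. The calls of CENPQ, OIP5 and PMF1 were lost in some alternatives. Line and table cannot be told apart in this test.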

How the results depend on the processing

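Of the calls among the 37 genes, 28 of 30 in C4-2 (all but CENPL and PMF1), 12 of 18 in DU145 and 24 of 28 in the interaction (all but CENPQ, OIP5, PMF1 and SPC25) were kept in every alternative in which the gene was tested. The stricter count filter called 25 of the genes lower in C4-2 against 30; OIP5, CENPH, CENPK, CENPM and PMF1 had too few counts to be tested under it. In DU145 the 7 lower calls became 4 with DESeq2 and 4 to 10 when 1 library was left out, with 4 without palbociclib replicate 1; the 11 higher calls ranged from 8 to 12. In C4-2, all genes called higher were 1857 with DESeq2 against 3011, for a cause that was not tested. There the other kinetochore genes called higher went from 0 to 1 (BOD1) with library totals, with the stricter count filter and, leaving out a library, to 0 to 1. The 37 genes called lower in C4-2 ranged from 29 to 31 and those with a positive interaction from 25 to 29 when 1 library was left out. Library totals moved the interaction's median over all genes from -0.017 to -0.116. Values near 0 changed sign without being called. In DU145, HJURP was -0.022 with library totals and with no filter and -0.008 with the stricter filter, and CENPP was -0.008, -0.007 and, without both libraries numbered 3, -0.021. Leaving out 1 library gave ranges across 0 for NSL1 in C4-2 (-0.026 to 0.197), CENPC in the interaction (-0.178 to 0.085) and, in DU145, HJURP (-0.063 to 0.078), CENPP (-0.059 to 0.06), SGO2 (-0.027 to 0.215), ZWINT (-0.04 to 0.009), PMF1 (-0.17 to 0.031) and ZW10 (-0.171 to 0.021).

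With the replicate block, the lower calls in DU145 were 11 instead of 7, and over all genes 4996 instead of 4493. The other kinetochore genes called higher in C4-2 were 1 instead of 0 with the block, and NSL1 in C4-2 was -0.029. In C4-2 the numbers pair only 2 libraries each, whose deviations were not correlated (r = -0.018 and 0.017), and CENPQ was the only one of the 37 genes whose call there changed (adjusted p = 0.0263). CENPP, SPC25 and SKA1 had too few counts in the C4-2 table to be tested.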
